A study of Bos taurus with 8 samples.

Results

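Cloned cattle embryos were set against embryos made by in vitro fertilisation (IVF) at the eight-cell stage, and the genes that lay apart from IVF in every cloned library were described. The clone group held 5 libraries, 3 from somatic cell nuclear transfer (SCNT) and 2 from SCNT embryos that overexpressed the histone demethylase KDM4E (KDM4E-SCNT), and the IVF group held 3. Each library came from a pool of 8 Holstein embryos, and its values are FPKM, read fragments scaled to transcript length and library total. SCNT without added KDM4E is the control that the series names. Both kinds of clone therefore share the transferred nucleus, the manipulation and the activation of the egg, and differ from each other in the added KDM4E. The donor cell, its sex, the sex of the embryos, the means of overexpression, the hour of collection and the batches are not given in the sources used here. Nothing says that the pools of a group were made on separate occasions, so p-values measure the spread between these libraries, which may be technical.

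A gene was set apart when all 5 clone values lay on 1 side of all 3 IVF values. Of 14839 genes tested, 4036 met this rule (27.2%), of which 2302 were higher in every clone library (15.5%) and 1734 lower (11.7%). The other 10803 overlapped. Because this rule reads the measured values, the differences of the genes it picks are a description.

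In nuclear transfer the egg receives the nucleus of a body cell, whose chromatin has to be returned to an embryonic state. A cattle embryo runs first on RNA and protein stored in the egg, and around the eight-cell stage it switches on its own genes at scale while stored transcripts are cleared. Methylation of lysine 9 on histone H3 marks silent chromatin that can resist this switch, and KDM4 enzymes remove that methylation. In whole-embryo pools, fewer cells of a type and less RNA per cell cannot be told apart, nor can stored from newly made RNA.

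The libraries held 10975 to 13050 genes at 1 FPKM or more, and sequencing depth is unknown because only FPKM were used. Mitochondrially encoded genes took 6.08% to 7.1% of FPKM in IVF and 7.54% to 11.5% in clones (exact permutation test, two-sided, p = 0.0357, the smallest that 5 against 3 libraries allow, adjusted 0.0416 over 7 library values). The 10 markers of oocyte and early embryo were all present, and their summed FPKM was 8494.4 to 9619.7 in IVF and 1534.5 to 7178.3 in clones. Of the KDM4 genes, the feature LOC524768, which the files describe as KDM4C-like, read 109, 88.3 and 109 FPKM in IVF, 25.4, 30.0 and 33.9 in SCNT, and 102 and 206 in KDM4E-SCNT. Whether this feature is the added KDM4E is not given in the sources used here, and other KDM4 copies may share its reads. Its clone values straddled IVF (log2 difference -0.84 ± 0.62 SE, limma adjusted p = 0.299), and the 2 kinds of clone did not overlap. KDM4C also overlapped and was not called, and KDM4A was higher in every clone by 0.45 ± 0.36 without being called (adjusted p = 0.339).

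Expression was compared on the log2(FPKM + 1) scale with limma, in which the 5 clones formed 1 group, so that the gap between clones with and without KDM4E counted as spread. At a Benjamini-Hochberg adjusted p under 0.05, 3069 genes were called (20.7%), 1847 higher in clones (12.4%) and 1222 lower (8.24%). Among the genes set apart by the rule, 1674 of the 2302 higher and 929 of the 1734 lower were called. A difference of at least 4-fold on this scale was seen in 916 of the higher genes and 268 of the lower. The count rested on single libraries. Without IVF replicates 1, 2 and 3 in turn it was 748, 854 and 818 higher and 107, 341 and 139 lower. Without SCNT replicates 1, 2 and 3 it was 1189, 1090 and 1096 higher and 272, 214 and 209 lower. Without KDM4E-SCNT replicate 1 it was 2090 higher and 1966 lower, and without replicate 2 it was 2857 and 4044. Calls that held in each of 20 alternative settings and leave-outs in which the gene was tested numbered 618 of the 1847 higher (33.5%) and 56 of the 1222 lower (4.58%). Some of the 56 stayed under 1 FPKM in every clone. Only the IVF libraries brought these past the filter on low values (at least 1 FPKM in at least 2 libraries), so their differences are a description.

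**Figure D1:**
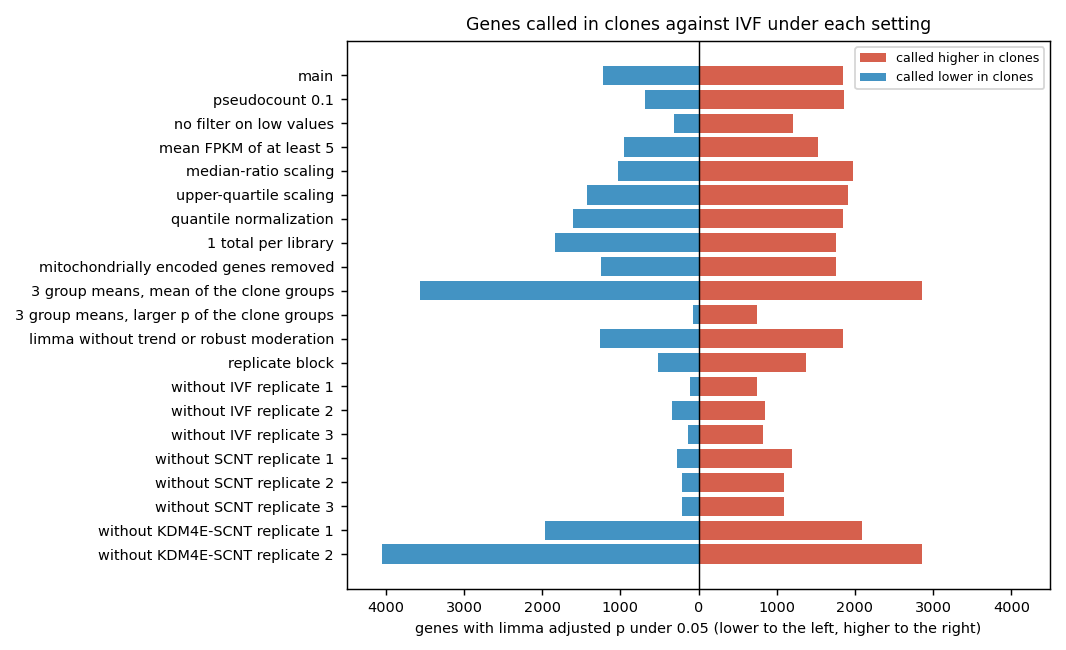
Number of genes called higher (right) and lower (left) in clones against IVF under the main settings, 12 other settings and with each of the 8 libraries left out. The higher calls stayed between 746 and 2863, while the lower calls ran from 73 to 4044.

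Among genes with a symbol and a mean log2 level of at least 3, the 10 largest rises were in genes of mixed function with low levels in IVF pools. ZFP42 (also called REX1, a zinc finger protein used as a marker of pluripotent cells) read 0.83, 1.54 and 12.8 FPKM in the 3 IVF libraries, 433, 289 and 526 in SCNT, and 196 and 72.6 in KDM4E-SCNT. Its lowest clone library was above its highest IVF library by several fold, and the log2 difference was 5.96 ± 0.72 (adjusted p = 0.000907). RNASEK, a small protein of the vacuolar proton pump, was listed at 0 in IVF replicates 1 and 3 and at 2.78 FPKM in replicate 2, and read 54.1 to 159 FPKM in clones. It passed the filter of at least 1 FPKM in at least 2 libraries only through the clones, so its difference is a description. SCNT and KDM4E-SCNT did not differ beyond their spread for RNASEK (KDM4E-SCNT minus SCNT -0.25, adjusted p = 0.758). TMSB4, which encodes an actin-binding thymosin, read 2.4 to 11.03 FPKM in IVF and 150 to 398 in clones, a rise of 5.48 ± 0.46 (adjusted p = 0.000209). The folate receptor FOLR1 rose by 5.31 ± 0.62 and the water channel AQP11 by 5.76 ± 0.81. POP5, a subunit of the RNase P and RNase MRP enzymes that trim tRNA and rRNA, rose by 5.72 ± 0.68. The core histone gene HIST1H2BJ rose by 5.57 ± 0.72, SSSCA1 by 5.38 ± 0.78, RPL22L1 by 5.34 ± 0.69 and the mitochondrial import chaperone TIMM10B by 5.32 ± 0.75. Adjusted p-values of these 10 genes ran up to 0.0167 when any 1 library was left out, so none of the 10 calls was lost. The 10 were picked as the largest rises among called genes in these same libraries, so their keeping the call is a description. Core histone genes have close copies, whose reads may be shared between them.

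**Figure D2:**
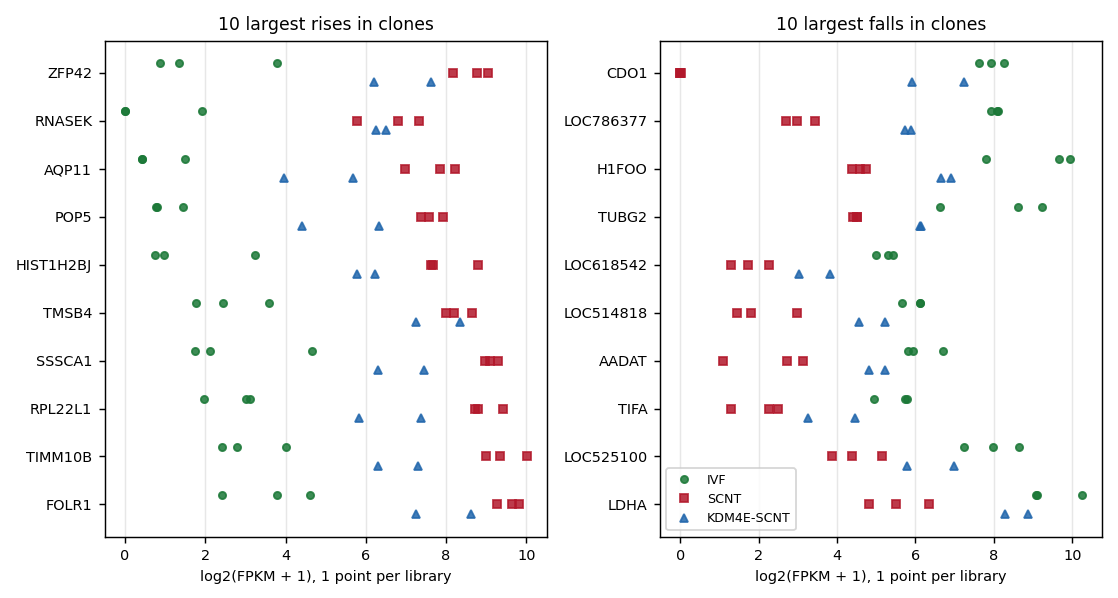
log2(FPKM + 1) of the 10 largest rises (left) and 10 largest falls (right) among called, non-overlapping genes with a symbol and a mean log2 level of at least 3, 1 point for each of the 3 IVF, 3 SCNT and 2 KDM4E-SCNT libraries. In the rises every clone point lies above every IVF point and in the falls below, as the rule requires, and KDM4E-SCNT points mostly lie between SCNT and IVF.

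Some rises were about as large in the 2 kinds of clone. S100A10, the light chain that pairs with annexin A2, read 10.3, 4 and 11.6 FPKM in IVF, 71.5, 45.4 and 46.3 in SCNT and 48.8 and 57.5 in KDM4E-SCNT. The 2 kinds of clone interleaved, and both stood 2.60 above IVF on the log2 scale (clones minus IVF 2.60 ± 0.40, adjusted p = 0.00197). TXN, the redox protein thioredoxin, read 13.5 to 45.7 FPKM in IVF and 105 to 178 in clones, and MRPL41 of the mitochondrial ribosome read 24.7 to 36 in IVF and 105 to 228 in clones. TXN rose by 2.32 ± 0.42 and MRPL41 by 2.29 ± 0.36. SNAPC5 (a subunit of the complex that transcribes small nuclear RNA genes), LAMTOR4 (part of the lysosomal Ragulator) and HIST1H2BN rose by 2.68, 2.24 and 2.45. These genes were picked for a small gap between the 2 kinds of clone, so their likeness is not a result.

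Genes of protein synthesis made up the most uniform group. Of 74 cytosolic ribosomal protein genes, 65 rose and none fell, against 12.4% and 8.24% of all genes tested, and 49 of the 65 calls held in all alternatives. The median of the list was 2.60 on the log2 scale, against -0.25 for all genes. RPL34 of the large subunit read 24.2, 32.7 and 23.7 FPKM in IVF, 1298, 1259 and 1234 in SCNT, and 659 and 275 in KDM4E-SCNT. The IVF libraries were within a narrow band and every clone was far above it (4.89 ± 0.50, adjusted p = 0.000518). The summed FPKM of the list was 12574.6 ± 762.7 (SD, n = 3) in IVF and 65829.4 ± 29873.7 (SD, n = 5) in clones. Ribosomal protein genes have many processed copies in the genome, and how reads were shared between copies is not given in the sources used here.

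Genes that build ribosomes and run translation rose in smaller shares, to be read beside 12.4% called higher and 8.24% lower over all genes. Among 63 ribosome biogenesis genes, 28 rose and none fell, including NOP16 (4.22 ± 0.51) and EMG1 (3.70 ± 0.43), which act in rRNA maturation. Of 45 translation factors, 20 rose and none fell. EIF6, which keeps the large subunit from joining early, read 11.9 to 59.1 FPKM in IVF and 143 to 937 in clones, and the release factor ETF1 read 20.7 to 27.2 and 78.2 to 317. EIF6 rose by 4.12 ± 0.63 and ETF1 by 2.98 ± 0.46. Calls held in all alternatives for 14 of the 28 and 7 of the 20, beside 33.5% of all higher calls.

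Mitochondrial genes encoded in the nucleus rose in part, to be read beside 12.4% called higher and 8.24% lower over all genes. Of 74 nuclear genes of oxidative phosphorylation, 32 rose and 1 fell, with a median of 1.09, and of 70 mitochondrial ribosomal proteins 24 rose and none fell, with a median of 0.83. NDUFA5 of complex I read 4.57, 11.9 and 8.25 FPKM in IVF, 603, 478 and 461 in SCNT, and 105 and 105 in KDM4E-SCNT. Both KDM4E-SCNT libraries were thus above IVF and below SCNT, and the clones stood 4.97 ± 0.63 above IVF (adjusted p = 0.00102). MRPL30 rose by 4.52 ± 0.51 and COX7A2 of complex IV by 3.28 ± 0.46. Among the 12 tested genes that mitochondria encode themselves, only CYTB and ATP6 rose, by 1.07 ± 0.30 and 1.01 ± 0.28, and both calls were lost without any one IVF or SCNT library (adjusted p 0.0851 to 0.12 for CYTB without an IVF library and 0.0509 to 0.0754 without an SCNT library, and 0.0895 to 0.121 and 0.0571 to 0.0751 for ATP6).

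Proteasome and nuclear RNA genes followed, with counts to be read beside 12.4% called higher and 8.24% lower over all genes. Of 34 proteasome genes 13 rose and 1 fell, among them the core subunits PSMA1 (4.93 ± 0.60) and PSMA2 (4.50 ± 0.57). PSMA1 read 2.55 to 9.59 FPKM in IVF and 66.2 to 405 in clones, with no overlap. Of 50 splicing genes 14 rose and none fell, including SF3B5 (2.97 ± 0.47), and of 55 genes of RNA polymerase II, Mediator and TFIID 16 rose and 1 fell, including TAF11 (3.41 ± 0.43). The median of that last list was 0.15, so most of its members did not follow the 16. Calls held in all alternatives for 5 of 13, 3 of 14 and 6 of 16, beside 33.5% of all higher calls.

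**Figure D3:**
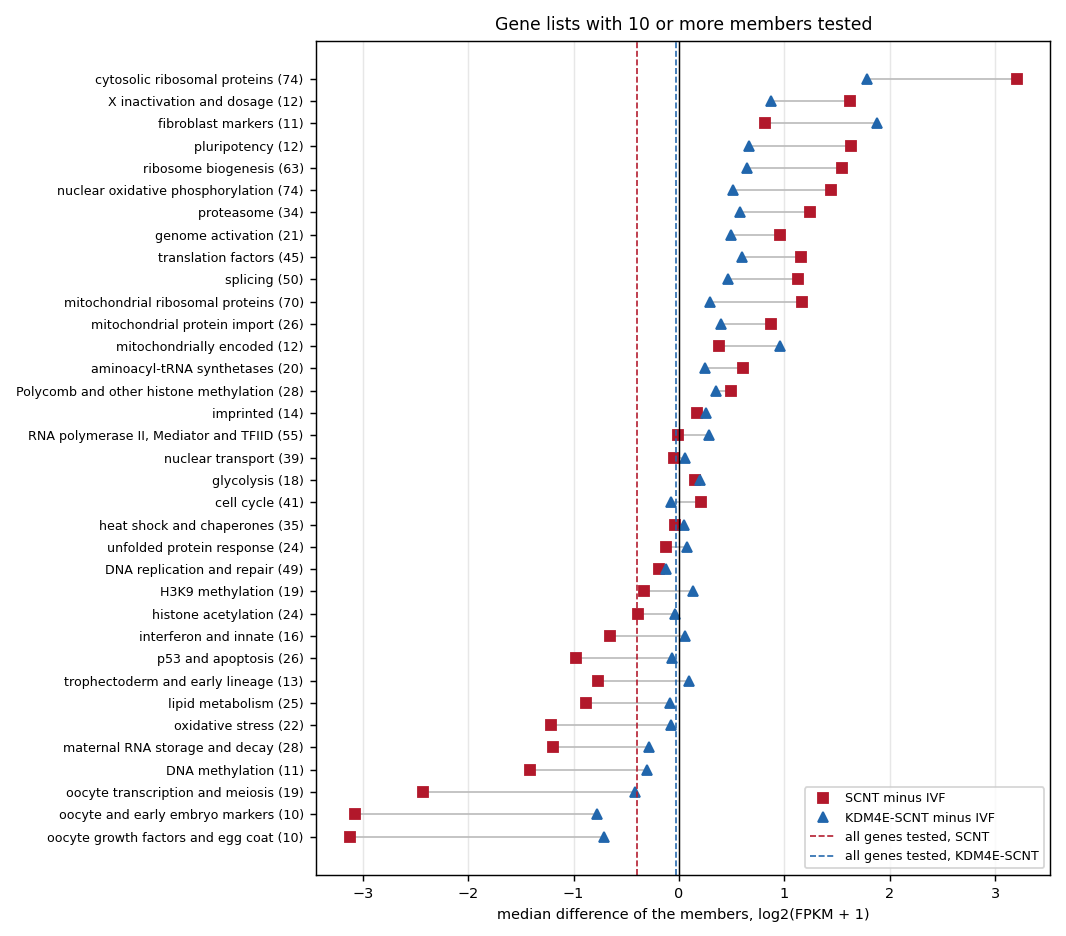
Median difference from IVF on log2(FPKM + 1), in SCNT (squares) and in KDM4E-SCNT (triangles), for each list with at least 10 tested members (their number in brackets), with dashed lines for the medians of all genes tested. Ribosomal proteins have the highest SCNT median (3.21) and the oocyte growth factors the lowest (-3.12), and the 2 differences share the IVF libraries.

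Genes of the embryo's own programme were higher in clones for some members. Over all genes tested, 12.4% were called higher and 8.24% lower, and 15.5% were higher in every clone. Of 12 pluripotency genes 5 rose, 1 fell and 7 lay above IVF in every clone, and 4 of the 5 calls held in all alternatives. NANOG, a core pluripotency factor, read 7.58, 1.86 and 3.09 FPKM in IVF, 107, 59.0 and 90.6 in SCNT, and 18.5 and 20.1 in KDM4E-SCNT. Its IVF libraries were all below the lowest clone (3.36 ± 0.63, adjusted p = 0.00497). PRDM14, a germline and pluripotency regulator, rose by 4.21 ± 0.63, while POU5F1 (OCT4) overlapped (IVF libraries from 19.6 to 35.4 FPKM, clones from 6.1 to 24.0) and was not called (-1.14 ± 0.47, adjusted p = 0.0856). STAT3, a transcription factor of cytokine signalling, was the one that fell (-1.48, adjusted p = 0.0475). Of 13 genes of trophectoderm and early lineages 2 rose and 1 fell. TEAD4, a factor of the outer cell lineage, was listed at 0 to 0.21 FPKM in IVF and read 5.21 to 9.63 in SCNT and 2.56 and 1.52 in KDM4E-SCNT. It rose by 2.36 ± 0.50 (adjusted p = 0.00929, 0.0551 without IVF replicate 1). TEAD4 passed the filter of at least 1 FPKM in at least 2 libraries through the clones alone, so its difference is a description. Among 21 genes known to start at genome activation, 7 rose and 3 fell. The 7 include the feature with the symbol UBTFL1, whose description is instead that of a MAU2 cohesion factor homolog. The initiation factor EIF1AX read 177 to 183 FPKM in IVF and 468 to 1563 in clones (2.45 ± 0.41, adjusted p = 0.00274).

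Chromatin regulators were mostly not called, and their counts are to be read against 12.4% higher and 8.24% lower over all genes. In the list of 19 genes of H3K9 methylation, which KDM4E acts against, 3 rose and 2 fell, and the sign of the list's median turned under quantile normalization. ATF7IP, a partner of the H3K9 methyltransferase SETDB1, rose by 1.95 ± 0.45 and the heterochromatin protein CBX5 by 1.34 ± 0.38, while EHMT2 (G9a, which writes H3K9 dimethylation) fell by 1.35 ± 0.38. ATF7IP lost its call without IVF replicate 1 or 2 (adjusted p 0.0782 and 0.0556). CBX5 lost it without IVF replicate 1 or 3 (0.137 and 0.109) or any one SCNT library (0.0669, 0.0781 and 0.0758). EHMT2 lost it without any one IVF library (0.105, 0.0689 and 0.112) or SCNT library (0.0623, 0.0776 and 0.0739). None of the calls in this list held in all alternatives. Of 28 Polycomb and other histone methylation genes 5 rose and none fell, among them SETD2 (3.21 ± 0.56), EED (2.26 ± 0.43) and KDM6A (2.60 ± 0.53). A list drawn up for imprinted genes, those expressed from 1 parental copy, gave 4 rises and 1 fall among 14. Whether each member is imprinted in cattle embryos was not examined. SNRPN, expressed from the paternal copy in mammals studied, read 2.07 to 4.7 FPKM in IVF and 12.4 to 115 in clones (3.69 ± 0.67, adjusted p = 0.00438), and NDN rose by 2.41 ± 0.39. MAGED1 of the same list, whose imprinting is not given in the sources used here, rose by 3.12 ± 0.45.

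Stress and cell division lists were mixed, and their counts stand beside 12.4% called higher and 8.24% lower over all genes. Of 41 cell cycle genes 4 rose and 4 fell, and CDK1, the kinase that drives entry into mitosis, rose by 2.25 ± 0.38. Of 49 genes of DNA replication and repair 6 rose and 3 fell, and the mismatch repair gene MSH6 rose by 3.36 ± 0.64. Of 35 heat shock and chaperone genes 6 rose and none fell. Of 26 genes of p53 and apoptosis 5 rose and 3 fell, and of 24 in the unfolded protein response 3 rose and 1 fell, led by MANF (4.31 ± 0.74), a secreted stress protein of the endoplasmic reticulum. In glycolysis 6 of 18 rose and 2 fell. The medians of the cell cycle, DNA replication, heat shock, unfolded protein, glycolysis and nuclear transport lists changed sign with the scaling. The X-linked enzyme PGK1 read 3.89 to 8.42 FPKM in IVF and 32.7 to 164 in clones, whereas LDHA, which turns pyruvate to lactate, read 1221, 537 and 543 in IVF, 27.1, 80.9 and 44.7 in SCNT, and 313 and 466 in KDM4E-SCNT. PGK1 rose by 3.83 ± 0.57 and LDHA fell by 2.70 ± 0.81 (adjusted p = 0.0379). The LDHA call was lost without any one IVF or SCNT library (adjusted p 0.151, 0.0837 and 0.0999 without IVF replicates 1 to 3, and 0.0664, 0.0827 and 0.083 without SCNT replicates 1 to 3).

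Of the 10 largest falls by the same limits on symbol and level, 3 held in every alternative. H1FOO, the linker histone of the oocyte, read 979, 223 and 811 FPKM in IVF, 22.9, 25.8 and 19.8 in SCNT, and 99.8 and 120 in KDM4E-SCNT. The groups did not overlap, and clones stood 3.68 ± 0.68 lower (adjusted p = 0.00475, 0.0399 without IVF replicate 1). LOC786377, in the chromosome 29 interval described further on, fell by 3.88 ± 0.71 and LOC618542 by 2.81 ± 0.54, and both kinds of clone were below IVF in each. CDO1, which oxidises cysteine, had the largest fall of the 10. It read 306, 195 and 241 FPKM in IVF, was listed at 0, 0 and 0.01 in SCNT, and read 59.1 and 150 in KDM4E-SCNT. Its spread within the clones was wide (-5.30 ± 1.54, adjusted p = 0.0347), and the call was lost without any one IVF library (0.127, 0.0879 and 0.108) or SCNT library (0.0661, 0.0802 and 0.0744).

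Transcripts that the oocyte stores were lower in clones in several lists, mainly in SCNT. Of 10 genes for oocyte growth factors and the egg coat 7 fell and none rose, of 8 for the subcortical maternal complex and NLRP proteins 6 fell, and of 19 for oocyte transcription and meiosis 7 fell, against 8.24% of all genes. Members lower in every clone numbered 1, 3 and 4, against 11.7% of all genes. The list medians were -3.12, -3.01 and -2.43 in SCNT and -0.71, -0.79 and -0.42 in KDM4E-SCNT. All but 1, H1FOO, of these 20 calls failed in at least 1 alternative. Of the first list only BMP15, an oocyte growth factor, had no overlap. Its libraries held 872 to 1593 FPKM with IVF, 186 to 205 with SCNT, and 600 and 829 with KDM4E-SCNT. BMP15 fell by 1.91 ± 0.52 (adjusted p = 0.0287), with 0.126, 0.0572 and 0.106 without IVF replicates 1 to 3 and 0.0591, 0.0691 and 0.0672 without SCNT replicates 1 to 3. Over the 40 named genes that fell, 37 lost the call without IVF replicate 1, 27 without replicate 2 and 33 without replicate 3, and 22, 25 and 24 without SCNT replicates 1 to 3. Over the 95 named genes that rose these numbers were 23, 11 and 18 and 4, 7 and 6.

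Some falls were similar in the 2 kinds of clone. TMEM192, a lysosomal membrane protein, read 17.6, 16.5 and 15.3 FPKM in IVF, 4.08, 2.63 and 2.92 in SCNT, and 4.31 and 4.62 in KDM4E-SCNT. All 5 clones sat within a narrow band below IVF (-1.91 ± 0.36, adjusted p = 0.00514), and the KDM4E-SCNT minus SCNT difference was 0.39 (adjusted p = 0.397). TMEM192 is among the 56 lower calls that held in all alternatives, and it was picked from these after its values were seen. Other falls of this kind, such as METTL22 and PDE3B, were chosen by the rule for likeness between the 2 kinds of clone and lost their calls without IVF replicate 1 (adjusted p 0.101 and 0.0612). METTL22 also lost its call without IVF replicate 3 (0.0856), and PDE3B without IVF replicate 2 (0.0556).

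Multi-copy gene families of the early embryo stood out among the lower genes. This was seen when about 14 families were scanned by description, and the families given here were picked because they stood out. On chromosome 29, between TRIM77 and LOC520034 (chr29:5175376-5892565, build UMD3.1), 52 features lie close together, and many are described as TRIM43, TRIM48, TRIM49, TRIM64 or TRIM77, proteins of the tripartite motif family. Of the 48 tested, 22 were lower in every clone (45.8%) and 1 was higher, while 12.6% of the 350 other tested genes of the chromosome were lower. Summed FPKM over the interval was 4186, 6588 and 5829 in IVF, 467, 734 and 733 in SCNT, and 2514 and 2344 in KDM4E-SCNT. Every clone total was below every IVF total, with KDM4E-SCNT between SCNT and IVF. TRIM77 itself read 279 to 319 FPKM in IVF, 30.2 to 34.3 in SCNT, and 128 and 224 in KDM4E-SCNT. The feature that went the other way carries the symbol UBTFL1, although the files describe it as a MAU2 cohesion factor homolog, and it read 1.44 to 6.29 FPKM in IVF and 12.6 to 81.1 in clones (3.51 ± 0.58, adjusted p = 0.0027). A feature of the interval that is described as an upstream-binding factor 1-like protein, ENSBTAG00000034921.3, was lower in every clone (-2.33 ± 0.75, adjusted p = 0.0459, and 0.0839 to 0.133 without any one IVF or SCNT library). An assembled locus with such a description overlapped IVF (-0.14 ± 1.05, adjusted p = 0.922). It read 0.8 to 11.2 FPKM in IVF, 0 to 1.25 in SCNT, and 28.2 and 16.3 in KDM4E-SCNT. Features with that description thus did not share a direction. The number of features called lower was 22 of 48 (45.8%), beside 8.24% called lower over all genes. This number ranged from 7 without IVF replicate 3 to 34 without KDM4E-SCNT replicate 2. It was 9 and 8 without IVF replicates 1 and 2 and 10 and 11 without SCNT replicates 2 and 3, and it was 7 where both kinds of clone had to differ from IVF and 11 without a filter on low values. Copies in such clusters can be alike in sequence, which was not examined here, so reads may be shared between members and they are not taken as independent.

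**Figure D4:**
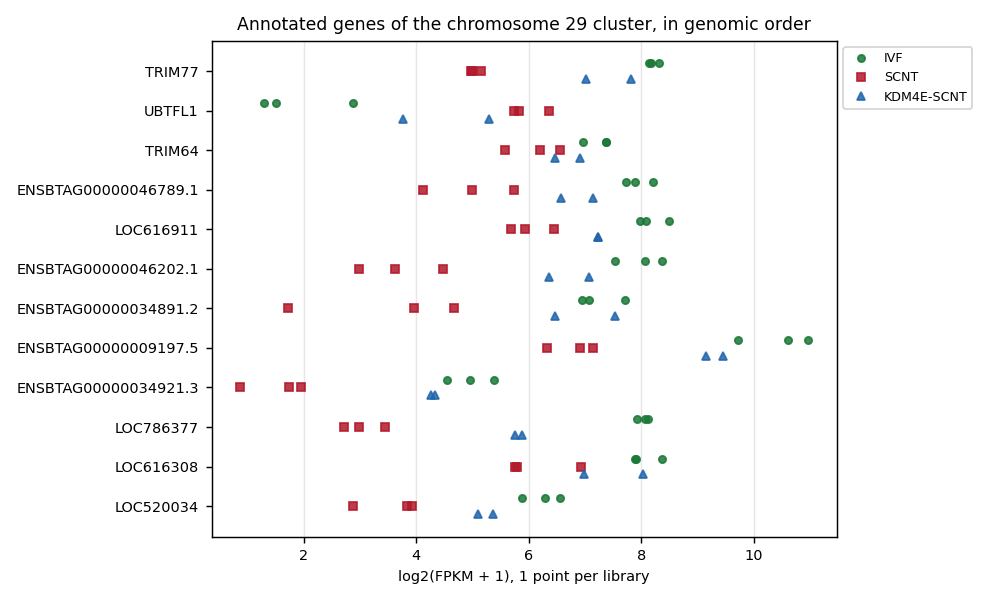
log2(FPKM + 1) of the 12 annotated tested genes of the chromosome 29 interval in genomic order, 1 point for each of the 3 IVF, 3 SCNT and 2 KDM4E-SCNT libraries. In 9 genes every clone point lies below every IVF point, in UBTFL1 every clone point lies above, and in the other 2 the groups overlap.

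Similar families lay elsewhere, to be read beside the 11.7% of all genes that were lower in every clone and the 8.24% called lower. Of 7 tested features described as FAM90A, all on chromosome 27, 6 were lower in every clone and called. Some of the 6 stayed under 1 FPKM in every clone, with highest clone values of 0, 0.24 and 0.75. These passed the filter on low values through the IVF libraries alone, so their differences are a description. LOC101907165 of this family (chr27:5367342-5369810, UMD3.1) read 30.8, 11.7 and 28.0 FPKM in IVF, 0.69, 0.75 and 1.27 in SCNT, and 2.28 and 4.82 in KDM4E-SCNT. Of 15 features described as ZSCAN5-like zinc finger genes, 8 were lower in every clone and 11 were called lower. Of 33 features described as PRAME family, 29 lay outside the chromosome 29 interval. Among these 29, 9 were lower in every clone and 2 higher. KDM4E-SCNT was called above SCNT for 27 of the 48 features of the chromosome 29 interval, 3 of the FAM90A and 11 of the ZSCAN5-like features. It was called above SCNT for 7 of the 29 PRAME features outside the interval. Over all genes 21.6% were called higher in that comparison. PRAME genes are expressed in germ cells and early embryos.

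Genes on the X chromosome lay above IVF more often than autosomal genes did, a set chosen after its values were seen. Of 746 X genes tested, 185 were higher in every clone (24.8%) and 61 lower (8.18%), against 15.0% and 11.9% of 14051 autosomal genes. No autosome passed 18.7% higher, and 6 of the 12 tested mitochondrial genes were higher in every clone. PLS3, an actin bundler, read 0.98, 1.09 and 2.06 FPKM in IVF, 138, 105 and 129 in SCNT, and 42.4 and 22.4 in KDM4E-SCNT. It rose by 4.95 ± 0.58 (adjusted p = 0.000767), and the cohesin subunit STAG2, the nucleotide enzyme PRPS1 and the cytokine receptor chain IL2RG rose by 3.62, 4.39 and 4.46. The median log2 level of X genes minus that of autosomal genes was -0.71, -0.79 and -0.62 in IVF, -0.06, -0.17 and -0.02 in SCNT, and -0.28 and -0.35 in KDM4E-SCNT, so the groups did not overlap on that measure. The share of FPKM held by X genes ran the other way, at 14.7% to 18.5% in IVF and 9.15% to 16.7% in clones, with overlap. The share of X genes higher in every clone stayed above that of other genes under each alternative (18.1% to 35.7% against 10.9% to 20.2%).

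**Figure D5:**
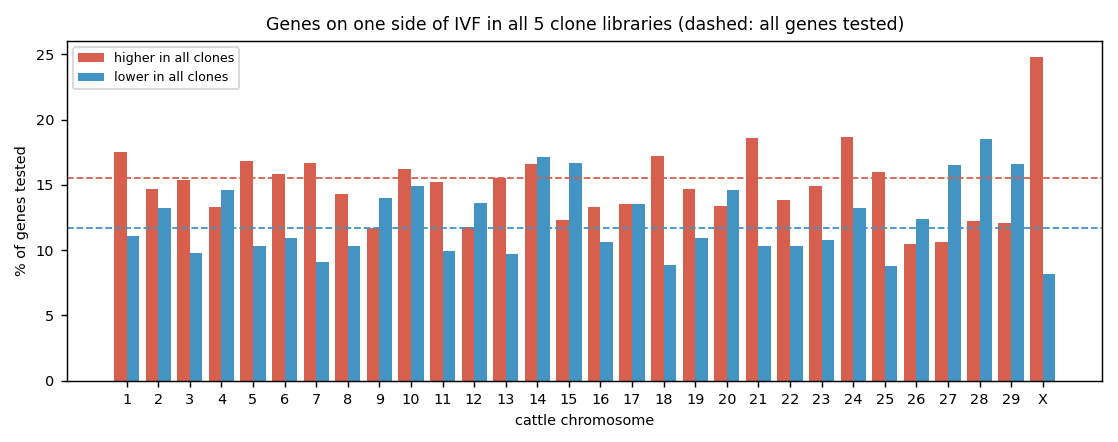
Percent of tested genes on each nuclear chromosome that were higher (red) or lower (blue) in every clone than in every IVF library, with dashed lines for all genes tested (15.5% and 11.7%). Among the nuclear chromosomes drawn, X has the highest share of higher genes at 24.8% and the lowest share of lower genes at 8.18%.

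Of 9 features that the files describe as Y-linked, placed on other chromosomes of the build, 3 reached 1 FPKM in an IVF library and none did in a clone. The other 6 stayed under 1 FPKM in all 8 libraries. The 2 that were tested passed the filter on low values through the IVF libraries alone, so their difference is a description. LOC786811, described as a testis-specific Y-encoded protein (chr17:25033671-25037093, UMD3.1), read 41.4, 33.6 and 14.3 FPKM in IVF and was listed at 0 in all 5 clones. LOC107131212, described as the Y-linked RNA helicase DDX3 (chrX:143364826-143375658, UMD3.1), read 8.99, 11.1 and 2.64 FPKM in IVF and 0 to 0.29 in clones. The feature described as the Y-linked EIF2S3 gene LOC107131189, had 1.2, 0 and 0.38 FPKM in the IVF libraries and was listed at 0 in every clone. Y-linked genes are carried by male embryos. The sex of the pooled embryos was not given, and its part in the X-linked, Y-linked and other differences was not tested.

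Markers of other cell types differed as well. Summed FPKM of 13 fibroblast markers was 24.2 to 48.1 in IVF and 85.9 to 375.7 in clones, with none of the markers under 1 FPKM in all libraries. Of the 11 tested, 4 were called higher and 7 were not called, beside 12.4% called higher over all genes. Only 3 of the 11 were higher in every clone and 8 overlapped, beside 15.5% higher in every clone over all genes. SPARC, a matrix protein of connective tissue, read 0.52, 0.59 and 0.94 FPKM in IVF, 50.6, 29.5 and 23.6 in SCNT, and 10.4 and 53.3 in KDM4E-SCNT. It rose by 4.16 ± 0.51 (adjusted p = 0.000907), and DCN and S100A4 were also higher in every clone, at 2.33 ± 0.51 and 2.85 ± 0.74. SPARC passed the filter on low values through the clone libraries alone, so its difference is a description. DCN lost its call without IVF replicate 2 (0.0601), and S100A4 without IVF replicate 1 or 3 (0.114 and 0.103). The collagen gene COL1A1 overlapped, with IVF between 0.59 and 1.24 FPKM and clones between 0.86 and 4.58. Blood markers summed to 12.1 to 18.7 FPKM in IVF and 28.2 to 73.9 in clones, with HBA the largest part in each clone. HBA rose by 2.60 ± 0.40, whereas the leukocyte markers PTPRC and CD14 were lower in every clone and fell by 1.71 ± 0.45 and 1.05 ± 0.35. The median of the 5 tested blood markers was -0.72, and HBB stayed under 1 FPKM throughout. The PTPRC call was lost without IVF replicate 1 or 2 (0.116 and 0.0658) or any one SCNT library (0.0548, 0.0601 and 0.0585), and that of CD14 without any one library but KDM4E-SCNT replicate 2 (0.0543 to 0.172). Sperm markers summed to 70.2 to 92.7 and 24.2 to 56.1, and cumulus and granulosa markers to 124.8 to 215.4 and 31.6 to 130.8, with ODF1, CYP19A1, FSHR and AMH under 1 FPKM throughout. Sums of fibroblast, blood, sperm and oocyte markers each gave an exact permutation p of 0.0357 (adjusted 0.0416), and that of cumulus markers 0.107. The part of such cells, or of their RNA, in the other differences was not tested.

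Genes that were near silent in one group and clear in the other were few. Each passed the filter on low values through 1 group alone, so their differences are a description. There were 30 genes under 1 FPKM in all IVF and at 5 or more in all clones, of which 17 were loci from the authors' transcript assembly and 7 had symbols (CAD, CALD1, KLHL24, RANBP6, SBSPON, SLC34A2 and SPARC). CAD, the enzyme that starts pyrimidine synthesis, read 0.17 to 0.24 FPKM in IVF and 5.93 to 11.96 in clones, and CALD1, an actin-binding caldesmon, read 0.33 to 0.87 and 6.26 to 14.1. In the other direction 21 genes were under 1 FPKM in all clones and at 2 or more in all IVF, of which 14 were assembled loci. A feature described as HMGB2-like, ENSBTAG00000020685.4, was among them, at 24.3, 4.24 and 56.7 FPKM in IVF and listed at 0 in every clone.

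The 2 kinds of clone were not equally far from IVF. The median difference of the 2302 higher genes was 2.16 in SCNT and 1.19 in KDM4E-SCNT, and that of the 1734 lower genes was -1.83 and -0.76. Both differences use the same IVF libraries. KDM4E-SCNT against SCNT was called for 4844 genes (32.6%), 3208 higher (21.6%) and 1636 lower (11%). Of the 2302 higher genes, 956 were lower and 9 higher in KDM4E-SCNT than in SCNT, and of the 1734 lower genes 809 were higher and none lower. That left 1337 and 925 genes for which no difference was called. The rule itself selects genes with both kinds of clone on the same side of IVF, so these shares are not set against the background. Within the 2 KDM4E-SCNT libraries, replicate 2 was nearer to IVF in 1738 of the 2302 and 1313 of the 1734. Without KDM4E-SCNT replicate 2, 1553 genes were called between the kinds of clone, and 3227 without SCNT replicate 1. The rule is easier to meet with fewer libraries: 3974 genes were lower in all clones without KDM4E-SCNT replicate 2 and 3021 without IVF replicate 2.

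At the edge of the rule, UGP2 and MCM4 were just inside and ADCY3 and AGPAT2 just outside. The highest clone value of UGP2 was 58.05 FPKM beside a lowest IVF value of 58.09, and that of MCM4 was 31.77 beside 31.79. ADCY3 had a highest clone value equal to its lowest IVF value, 2.23 FPKM, and AGPAT2 was listed at 0 in all IVF and in 2 clones.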

How the data were processed

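RNA from pools of 8 embryos was sequenced as 8 libraries. The deposited files hold FPKM for 21258 features, per the file headers, including loci from the authors' transcript assembly. Build UMD3.1 and the tools RSEM 1.2.12, Bowtie2 2.2.5, StringTie 1.0.4, HISAT 0.1.6 and bcl2fastq 2.16 are listed in the submitters' processing notes with no role for each. FPKM divides by length and library total, so a group of abundant genes that changes shifts all others, and depth and read counts cannot be recovered. RefSeq assembly ARS-UCD2.0 served for gene names only.

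Values were tested as log2(FPKM + 1), which understates changes of low genes, for 14839 features with at least 1 FPKM in at least 2 libraries (6419 were set aside), with limma 3.58.1 in R 4.3.3 (limma-trend, robust), two-sided, Benjamini-Hochberg over all tested. The main fit had 2 groups, and a second had 3. Errors are SE for log2 differences and SD for means. The scripts were tested on simulated data. Members and gene lists were chosen with earlier results of these data known. Genes named are the 10 largest rises and falls (called, with a symbol, not overlapping, mean log2 of at least 3), 8 in each direction most alike in both kinds of clone, the 3 smallest p-values of each list, the 3 most abundant of other cell types, the KDM4 genes and 2 genes on each side of the rule's edge. X, Y, the chromosome 29 interval, families, near-silent genes and the genes named with them, and list members beyond these, were chosen after values were seen and carry no support. Alternatives were other pseudocounts, filters, scalings, models and leaving out each library. Promoter motifs and sequences were not analysed here, and 1 gene is not reported here.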

Additional observations from a re-analysis of the deposited data

Results flagged for a closer look

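In groups of 5 clone libraries, 1 library stood apart from the other 4 for 9 of 184 values examined (its gap to the nearest other library, as a share of the whole range on the log2 scale, above 0.71). Chance gives this in about 1 of 20 groups. KDM4E-SCNT replicate 2 was the highest clone for ASTL, an egg protease (0.756), and PTGS2 (0.882), and the lowest for TOMM5 (0.738), MED12 (0.762), HAT1 (0.714) and IL2RG (0.857). KDM4E-SCNT replicate 1 was the highest for NDN (0.804) and the lowest for DCN (0.799). SCNT replicate 2 was the highest for LOC107131212 (0.771), at 0.29 FPKM.

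The difference from IVF was itself unlike between SCNT and KDM4E-SCNT (limma, adjusted p under 0.05 for KDM4E-SCNT minus SCNT) for 965 of the 2302 genes higher in all clones, 809 of the 1734 lower and 106 of the named genes.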

How the results depend on the processing

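Against 3069 calls (1847 higher, 1222 lower), the count was 1530 (1211 and 319) without a filter on low values, 6423 (2863 and 3560) for the mean of the clone groups, 819 (746 and 73) where both clone groups had to differ from IVF, and 1900 (520 lower) with the replicate block. A pseudocount of 0.1 gave 679 lower and 1 total per library 1841 lower. Leaving out 1 library gave 855 to 6901 calls, 748 to 2857 higher and 107 to 4044 lower, 1768 to 3974 genes lower in all clones (1045 with a mean of at least 5 FPKM), and 1553 to 5242 calls between the kinds of clone. After each group's mean was taken out, same-numbered libraries of different groups correlated at 0.006 to 0.123 and differently numbered ones at -0.134 to 0.134. With so few libraries per group, taking out the mean itself shapes these values, so they cannot show whether the numbers are pairs. The main fit did not treat the numbers as pairs. Members of the lists called were 373, with 166 to 606 on leaving out 1 library, 239 without a filter, 596 for the mean of the clone groups and 175 for both. The mitochondrial share stood 3.22 points higher in clones and 2.80 to 3.79 with 1 library left out, where the smallest exact p is 0.0571 or 0.0952. List medians turned for trophectoderm (0.0981) and blood (2.60) with a mean of at least 5 FPKM, DNA replication and repair (0.0633) with median-ratio scaling and H3K9 methylation (0.0179) with quantile normalization. Lists of cell cycle (-0.07 to 0.35), heat shock (-0.20 to 0.21), unfolded protein response (-0.31 to 0.04), glycolysis (-0.05 to 0.33) and nuclear transport (-0.01 to 0.35) also spanned 0 over the scalings. Of the calls 60.2% were higher, 73.3% with the smaller pseudocount and 48.9% with 1 total per library. Scaling moved the median of all genes from -0.25 to between -0.08 and -0.38. For all these changes the cause was not tested. Depth is unknown, so a 0 may be a failed estimate.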

Other observations

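Genes set apart differed in span and level. The median span of annotated genes was 13053 bp for those higher in all clones and 30704 bp for those lower, against 22097 bp over all, with lengths as the files give them. The share higher in all clones rose with level, from 7.61% in the lowest of 5 equal bins of mean level to 25.2% in the highest, and the share lower from 7.99% to 14.1%. In IVF, 599 of the 2302 higher genes stayed under 1 FPKM in every library, and 185 of the 1734 lower genes did so in every clone. These genes passed the filter on low values through the other group alone.

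Of the 56 lower calls that held in all alternatives, 35 were loci from the authors' transcript assembly and 7 lay in the chromosome 29 interval. Some of the 56 stayed under 1 FPKM in every clone, such as LOC786811, listed at 0 in all 5. They passed the filter on low values through the IVF libraries alone, so their differences are a description. ADAD1, a double-stranded RNA binding protein of germ cells, was one of the 56 and stayed above 1 FPKM in every clone. It read 30.0, 44.9 and 33.8 FPKM in IVF, 4.23, 4.21 and 1.56 in SCNT, and 8.26 and 14.3 in KDM4E-SCNT. The potassium channel gene KCND2 read 8.67, 4.27 and 1.37 FPKM in IVF and 0 to 0.32 in clones. KCND2 passed the filter on low values through the IVF libraries alone, so its difference is a description. These genes were picked after their values were seen.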
